A study of Homo sapiens with 4 samples.

Results

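In all, 8 genes of sphingolipid synthesis and sphingosine-1-phosphate (S1P) handling were followed through engineered prostate cancer tissues: SPNS2, SPHK1, SPHK2, SGPL1, SPTLC1, SPTLC2, SPTSSA and SPTSSB. They were taken by symbol, and all 8 of 8 were among the 17791 genes of the table. The tissues were hydrogels of poly(ethylene glycol)-fibrinogen holding human cancer cells, from which RNA was sequenced at day 15 of culture in 4 libraries, 1 per group. Each line was grown as a monoculture and as a coculture with BJ-5ta fibroblasts, at 5 cancer cells to 1 fibroblast. The study uses PC-3 as its castration-resistant model (tagged CRPC-ne) and LNCaP as its androgen-dependent model (tagged ADPC), both established from prostate cancer, and BJ-5ta is a normal human fibroblast line. No group received a treatment. The culture protocol describes PC-3 and fibroblast media, and the LNCaP medium is not given in the sources used here. RNA came from more than 2 tissues per group, and nothing states whether it was pooled before library preparation, so the spread between tissues is not known. With 1 library per group, each difference compares 2 libraries, no difference was tested, and every interval covers counting error only. SPNS2 was selected on its difference between the PC-3 libraries and the other 7 as genes of its pathway, with their CPM in these libraries known, so all differences are descriptions.

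Sphingolipid synthesis starts at the endoplasmic reticulum, where serine palmitoyltransferase joins serine to a fatty acyl-CoA. The enzyme pairs SPTLC1 with a catalytic partner, SPTLC2 or SPTLC3, and a small activating subunit, SPTSSA or SPTSSB, helps to set which acyl-CoA is used. Further steps make ceramide, the parent of sphingomyelin and glycosphingolipids. Ceramide is broken down to sphingosine, which the kinases SPHK1 and SPHK2 convert to S1P. SPNS2 exports S1P from the cell, the lyase SGPL1 degrades it irreversibly, and 5 receptors, S1PR1 to S1PR5, sense it outside the cell.

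The regions before the start sites of 4 of the genes are shown because each of the pairs SPTSSA with SPTSSB and SPHK2 with SPHK1 holds 1 gene that both lines expressed at readily counted levels and 1 that differed far more between the lines. RefSeq sequences on GRCh38.p14 were at hand for 7 of the 8 genes. Each stretch of 250 bases ends just before the gene's start, runs 5′ to 3′ on the gene's own strand, and has matches to the searched motifs in capitals. SPTSSA is at chr14:34462241-34462490 (minus strand), SPTSSB at chr3:161371518-161371767 (minus strand), SPHK2 at chr19:48619256-48619505 (plus strand) and SPHK1 at chr17:76382954-76383203 (plus strand).
SPTSSA: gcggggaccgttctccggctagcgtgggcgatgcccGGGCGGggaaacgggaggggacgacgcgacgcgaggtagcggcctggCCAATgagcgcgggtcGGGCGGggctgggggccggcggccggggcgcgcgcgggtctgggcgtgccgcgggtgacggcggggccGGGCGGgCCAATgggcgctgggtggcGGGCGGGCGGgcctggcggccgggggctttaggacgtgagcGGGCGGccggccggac
SPTSSB: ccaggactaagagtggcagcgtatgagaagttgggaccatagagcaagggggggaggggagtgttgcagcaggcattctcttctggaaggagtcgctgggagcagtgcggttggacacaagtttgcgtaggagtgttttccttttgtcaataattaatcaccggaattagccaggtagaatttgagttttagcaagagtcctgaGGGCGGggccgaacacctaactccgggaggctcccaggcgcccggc
SPHK2: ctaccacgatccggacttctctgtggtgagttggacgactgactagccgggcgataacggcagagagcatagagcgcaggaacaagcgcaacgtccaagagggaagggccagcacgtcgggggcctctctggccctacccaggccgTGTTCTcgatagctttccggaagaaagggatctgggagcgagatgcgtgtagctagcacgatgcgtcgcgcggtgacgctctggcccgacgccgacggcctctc
SPHK1: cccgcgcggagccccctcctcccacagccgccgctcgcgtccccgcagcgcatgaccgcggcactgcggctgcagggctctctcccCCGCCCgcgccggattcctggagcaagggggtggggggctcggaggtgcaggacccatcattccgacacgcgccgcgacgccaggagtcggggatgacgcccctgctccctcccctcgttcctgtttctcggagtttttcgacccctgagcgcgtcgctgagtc
In all, 6 motifs were searched on both strands. These were the AP-1 site (TGANTCA), the GC box (GGGCGG), the TATA box (TATAAA), the E-box (CACGTG), the CCAAT box (CCAAT) and an androgen response hexamer (AGAACA). Among 35116 promoters cut to the same 250 bases, 6.57%, 42.6%, 10.7%, 6.34%, 32.0% and 12.4% held them, in the same order. SPTSSA held 6 GC boxes, of which 2 overlap each other, and 2 CCAAT boxes, whereas SPTSSB held 1 GC box. SPHK1 held 1 GC box and SPHK2 held 1 androgen response hexamer. SPTSSA had 43 CpG dinucleotides in the window, more than 99.0% of promoters, and SPTSSB had 10, against a median of 11 over all promoters. SPHK1 had 31 and SPHK2 had 26. The matches describe letters only and no binding was measured.

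Levels are given as CPM, counts per 1000000 after scaling of the libraries, and, where genes are set against each other, as CPM per kilobase (kb) of exonic length. Total counts ranged from 15520243 to 15865690. KLK3, prostate-specific antigen, had 60226 and 74134 counts in the LNCaP libraries and 0 in either PC-3 library. The keratin gene KRT7 had 10781 and 10475 counts in the PC-3 libraries, and 0 and 2 in the LNCaP monoculture and coculture. Both genes went with the line labels. TMPRSS2 was counted in both lines, with 7309 and 6384 counts in PC-3 and 21261 and 27990 in LNCaP. Fibroblast markers were present in the cocultures. The summed level of 15 such markers was 57.6 CPM without fibroblasts and 482 CPM with them in PC-3, and 18.1 and 731 CPM in LNCaP, with 6 and 7 of them at 0 in the monocultures and 0 of them at 0 in the cocultures. Of 10 endothelial markers, 8 were in the table, and their sum was 222, 237, 12.3 and 38.0 CPM in the PC-3 monoculture, PC-3 coculture, LNCaP monoculture and LNCaP coculture. Most of the PC-3 value came from KDR and PECAM1, which the PC-3 monoculture held without fibroblasts at 2681 and 806 counts. Most of the LNCaP value came from VWF, at 171 counts without fibroblasts and 567 with them. Of the rest, ROBO4 reached 45 counts in PC-3 cells alone and EMCN 15 in LNCaP cells alone. In each monoculture 4 of the 8 were at 0. TEK, a receptor of endothelial cells, was at 0 in both, and its cocultures held 5 counts in PC-3 and 2 in LNCaP. The sum of the 4 blood and immune markers in the table ran from 5.00 CPM in the LNCaP monoculture to 60.9 CPM in the PC-3 coculture. In these mixed tissues fewer cells of a type and less RNA per cell cannot be told apart.

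SPNS2, the S1P exporter (chromosome 17, 4498881 to 4539035), was highest in PC-3 cells alone and lowest in LNCaP cells alone. The PC-3 monoculture had 473 counts (29.6 CPM, 95% counting interval 27.0 to 32.4) and the PC-3 coculture 225 (14.4 CPM, 12.5 to 16.4). It had 18 counts (1.14 CPM, 0.676 to 1.80) in the LNCaP monoculture and 30 (1.93 CPM, 1.30 to 2.76) in the LNCaP coculture. The PC-3 libraries lay above both LNCaP libraries and apart from each other, while the intervals of the LNCaP libraries overlapped. The level in the PC-3 coculture was 2.06-fold lower than in the monoculture (1.76 to 2.43). The fibroblast marker sum was higher in the same library, and its part in this difference was not tested. SPNS2 drew attention because it was the only 1 of 8579 genes at 20 CPM or more in the PC-3 monoculture with a log2 fold of -1 or below. Its log2 fold was -1.04, and the next genes, named after their values were seen, were BOLA2B at -0.90, which has a near-identical copy that can share its reads, and HILPDA at -0.88. Among all 14417 genes at 1 CPM or more in either PC-3 library, 146 were at least 2-fold lower in coculture. There SPNS2 ranked 131 from the lowest, so standing alone depends on the cut at 20 CPM. In LNCaP the coculture value was 1.70 times the monoculture value with an interval of 0.916 to 3.23 that includes 1. The log2 fold in LNCaP minus that in PC-3 was 1.81 (0.93 to 2.68), which contains the PC-3 fold that SPNS2 was selected on.

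SPNS2 was 26.0-fold lower in LNCaP than in PC-3 monoculture (16.3 to 44.2) and 7.42-fold lower in the coculture (5.06 to 11.3). A stretch of 139 bases, 4.03% of its exonic length, is shared with MYBBP1A on the other strand, and the library kit does not mark strand. MYBBP1A was 2.63-fold higher in the LNCaP monoculture than in the PC-3 monoculture. It had 2200 and 2246 counts in the LNCaP monoculture and coculture, where SPNS2 had 18 and 30. The part of this overlap in the SPNS2 counts was not tested. The 5 genes whose log2 levels over the 4 libraries, each centred on its own mean, lay nearest to SPNS2 among 13006 genes were TCF7L1 (Euclidean distance 0.39), CCDC69 (0.45), NELL2 (0.47), NR4A2 (0.50) and MXRA7 (0.52). In monoculture their log2 folds of LNCaP over PC-3 ran from -4.46 to -4.10, near the -4.55 of SPNS2. In the PC-3 coculture their log2 folds were -0.59, -0.45, -1.28, -0.39 and -0.33, against -1.04 for SPNS2. NELL2 had only 2 and 6 counts in the LNCaP libraries. TCF7L1, a transcription factor of the TCF/LEF family, had 256, 166, 11 and 15 counts in the PC-3 monoculture, PC-3 coculture, LNCaP monoculture and LNCaP coculture. Of the other members, SPHK1 was the nearest, at rank 345 of the 13006 genes (distance 1.25). The 5 genes were picked as nearest over these same values, so folds near those of SPNS2 follow from that choice. Likeness over 4 libraries is a description of these values.

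**Figure D1:**
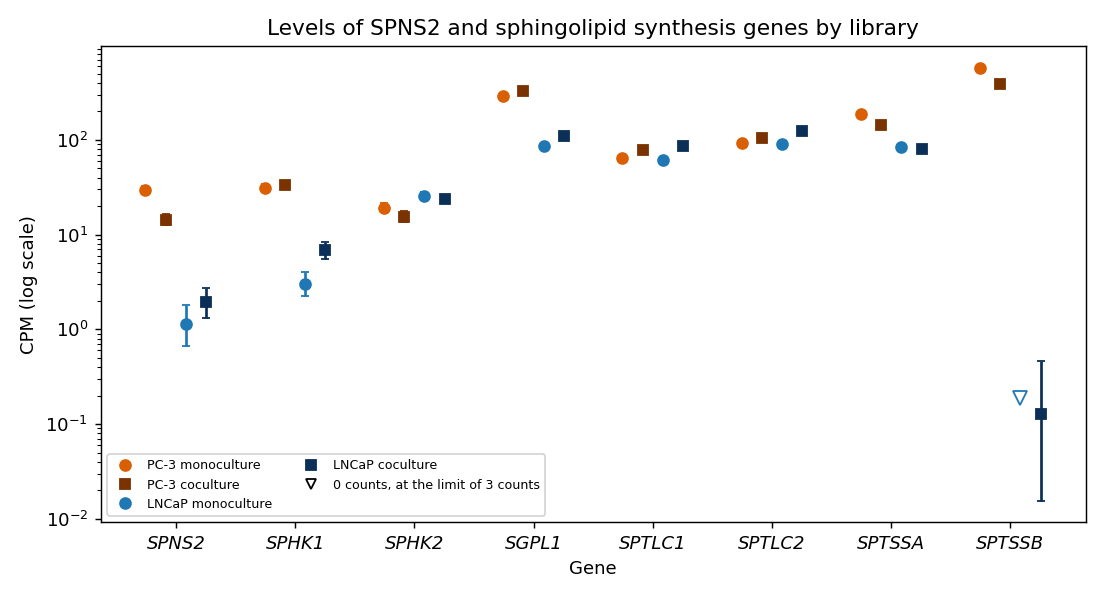
CPM on a log scale for each of the 8 genes in the 4 libraries, with 95% counting intervals as bars where they exceed the marker. SPTSSB stands at 567 and 387 CPM in PC-3 and has 0 and 2 counts in LNCaP, where the open triangle marks the limit of 3 counts, while SPTLC1 and SPTLC2 lie close together in all 4 libraries.

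The kinases that make S1P differed in opposite directions between the lines, but SPHK2 by 1.32-fold in monoculture, on counts that are uncertain. SPHK1 (chromosome 17, 76383204 to 76387855), the mostly cytosolic kinase, had 496 counts (31.1 CPM) in the PC-3 monoculture and 526 (33.6 CPM) in the PC-3 coculture. It had 48 (3.04 CPM) in the LNCaP monoculture and 106 (6.83 CPM) in the LNCaP coculture. The PC-3 libraries were both high and their intervals overlapped, and the LNCaP libraries were low and apart. SPHK1 was 2.25-fold higher in the LNCaP coculture than in its monoculture (1.58 to 3.23), against 1.08-fold in PC-3 (0.954 to 1.22). The difference of these log2 folds was 1.06 (0.53 to 1.58). Smaller positive differences were seen for SPTSSA at 0.31 (0.18 to 0.45) and SPTLC2 at 0.27 (0.13 to 0.41). For SPTLC1 the difference was 0.20 (0.03 to 0.37), for SGPL1 0.18 (0.07 to 0.30) and for SPHK2 0.21 (-0.10 to 0.53). Between the lines, SPHK1 was 10.2-fold lower in the LNCaP monoculture than in the PC-3 monoculture (7.59 to 14.1) and 4.91-fold lower in the coculture (3.98 to 6.11).

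SPHK2 (chromosome 19, 48619506 to 48630405), the kinase also found in the nucleus and mitochondria, had 307 counts (19.2 CPM) and 243 (15.5 CPM) in the PC-3 monoculture and coculture. In LNCaP it had 401 (25.4 CPM) and 368 (23.7 CPM). All 4 values lay within a narrow range, with LNCaP above PC-3. The fold of LNCaP over PC-3 was 1.32 (1.14 to 1.54) in monoculture and 1.53 (1.30 to 1.81) in coculture. The fold of coculture over monoculture was 0.806 in PC-3 (0.679 to 0.957) and 0.934 in LNCaP (0.809 to 1.08). Its counts are uncertain, since 1212 bases, 25.7% of its exonic length, are shared with other genes, among them DBP and the ribosomal protein gene RPL18. DBP was 2.44-fold higher in LNCaP than in PC-3 monoculture. RPL18 had folds of 0.816 and 0.649 in the PC-3 and LNCaP cocultures and was 2.58-fold higher in LNCaP than in PC-3 monoculture. The part of these overlaps in the SPHK2 values was not tested.

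Which kinase was the more abundant therefore differed by line. Per kb, SPHK1 stood at 2.53 times SPHK2 in the PC-3 monoculture (2.19 to 2.93) and 3.40 times in the PC-3 coculture (2.91 to 3.97). In LNCaP the same ratio was 0.188 (0.136 to 0.254) in monoculture and 0.452 (0.361 to 0.562) in coculture. The ratio was above 1 in both PC-3 libraries and below 1 in both LNCaP libraries. It was higher in coculture than in monoculture, by 1.34 times in PC-3 (1.09 to 1.65) and 2.41 times in LNCaP (1.66 to 3.48). A change of such a ratio does not depend on library scaling or gene length. It does depend on the SPHK2 counts, which the overlaps given above make uncertain. In PC-3 the SPHK1 coculture fold by itself was 1.08, with an interval that included 1 (0.954 to 1.22). The LNCaP coculture, where SPHK1 was higher, was also the library with the highest summed fibroblast markers, and their part in the SPHK1 value was not tested. Of these markers, COL3A1, PDGFRA, PDGFRB and TWIST2 had fewer counts there than in the PC-3 coculture, and the others had more.

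SGPL1 (chromosome 10, 70815948 to 70881184), the S1P lyase, was abundant and higher in PC-3. It had 4620 counts (289 CPM) and 5083 (324 CPM) in the PC-3 monoculture and coculture, and 1372 (86.9 CPM) and 1716 (111 CPM) in the LNCaP monoculture and coculture. Both PC-3 values were above both LNCaP values, and each coculture was above its monoculture. The LNCaP level was 3.33-fold lower in monoculture (3.14 to 3.54) and 2.93-fold lower in coculture (2.78 to 3.10). The coculture fold was 1.12 in PC-3 (1.08 to 1.17) and 1.27 in LNCaP (1.19 to 1.37). Per kb, SPHK1 was at 0.206 of SGPL1 in PC-3 monoculture, 0.198 with fibroblasts, and at 0.0670 and 0.118 in the LNCaP monoculture and coculture.

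**Figure D2:**
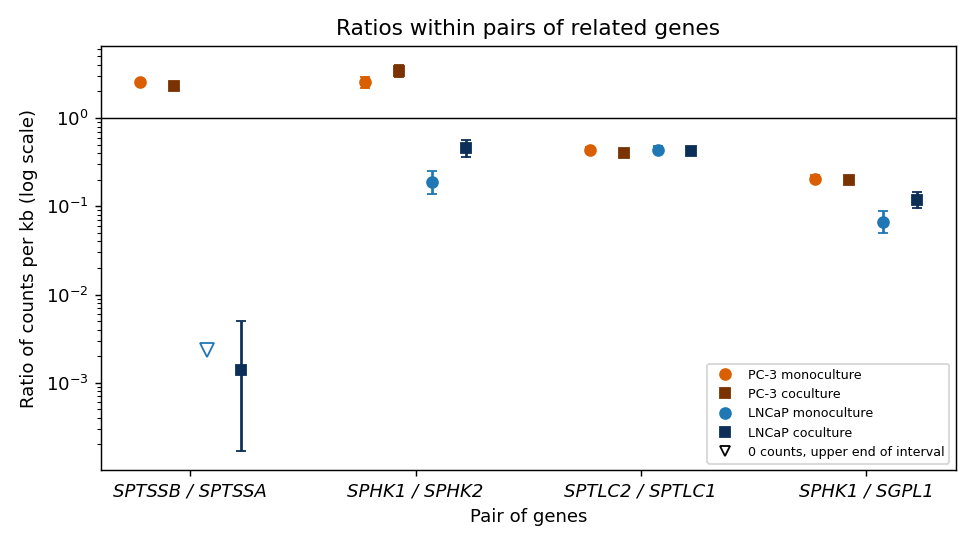
Ratio of counts per kb of exonic length, on a log scale, within 4 pairs of genes and in each library, with 95% counting intervals. SPTSSB to SPTSSA and SPHK1 to SPHK2 lie above 1 in both PC-3 libraries and below 1 in both LNCaP libraries, while SPTLC2 to SPTLC1 lies between 0.399 and 0.440 in all 4.

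The core subunits of serine palmitoyltransferase differed little between the lines. SPTLC1 (chromosome 9, 92031147 to 92115413), the shared subunit, had 1017 counts (63.7 CPM) in the PC-3 monoculture, 1218 (77.7 CPM) in the PC-3 coculture, 965 (61.1 CPM) in the LNCaP monoculture and 1328 (85.6 CPM) in the LNCaP coculture. SPTLC2 (chromosome 14, 77505997 to 77616637), the catalytic partner, had 1489 (93.3 CPM), 1649 (105 CPM), 1441 (91.3 CPM) and 1928 (124 CPM) in the same order. Both genes were higher in either coculture than in its monoculture. In monoculture the LNCaP over PC-3 fold was 0.959 for SPTLC1 (0.877 to 1.05) and 0.978 for SPTLC2 (0.909 to 1.05). In coculture it was 1.10 (1.02 to 1.19) and 1.18 (1.11 to 1.26), and these intervals leave out 1. SPTLC1 was 1.22-fold higher in the PC-3 coculture (1.12 to 1.33) and 1.40-fold higher in the LNCaP coculture (1.29 to 1.52). SPTLC2 was 1.13-fold higher (1.05 to 1.21) and 1.36-fold higher (1.27 to 1.46). The ratio of SPTLC2 to SPTLC1 per kb was 0.431, 0.399, 0.440 and 0.428 in the same library order, and for each of the 4 comparisons the interval of its change included 1.

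Of the small subunits, SPTSSB differed far more between the lines than SPTSSA. SPTSSA (chromosome 14, 34432788 to 34462240) had 2991 counts (187 CPM) in the PC-3 monoculture and 2222 (142 CPM) in the PC-3 coculture, against 1330 (84.2 CPM) and 1229 (79.2 CPM) in the LNCaP libraries. It was 2.22-fold lower in LNCaP in monoculture (2.08 to 2.37) and 1.79-fold lower in coculture (1.67 to 1.92). SPTSSB (chromosome 3, 161344798 to 161371517), its paralog that favours longer acyl-CoA substrates, had 9043 counts (567 CPM) and 6064 (387 CPM) in the PC-3 monoculture and coculture. In the LNCaP monoculture SPTSSB had 0 counts, where the floor of 3 counts is 0.190 CPM and the exact interval reaches 0.234 CPM, and in the LNCaP coculture it had 2 (0.129 CPM, 0.0156 to 0.466). The PC-3 libraries were both high and the LNCaP libraries both at or under the floor of 3 counts. SPTSSB was at least 2982-fold lower in LNCaP than in PC-3 monoculture, against a floor of 3 counts per library, and 3001-fold lower in coculture with a wide interval (830 to 24788). Both LNCaP libraries were at or under the floor, so no coculture fold is given there.

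In PC-3 both small subunits were lower in the coculture, SPTSSB by 1.46-fold (1.42 to 1.51) and SPTSSA by 1.32-fold (1.25 to 1.40), in the library where both core subunits were higher. In LNCaP the fold of SPTSSA was 0.941 (0.870 to 1.02). SPTSSB made up 72.1% of small subunit counts per kb in PC-3 monoculture, 70.0% with fibroblasts, and 0.139% in LNCaP with fibroblasts. Of the catalytic partners, SPTLC3, the alternative to SPTLC2, ran with SPTSSB by line. It had 1463 and 1517 counts in the PC-3 monoculture and coculture and 34 and 75 in the LNCaP monoculture and coculture. Per kb it was 56.5% and 54.9% of SPTLC2 plus SPTLC3 in PC-3, and 3.03% and 4.90% in LNCaP. The 2 lines therefore shared SPTLC1 and SPTLC2 at like levels, whereas SPTSSB and SPTLC3 were abundant in PC-3 alone.

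**Figure D3:**
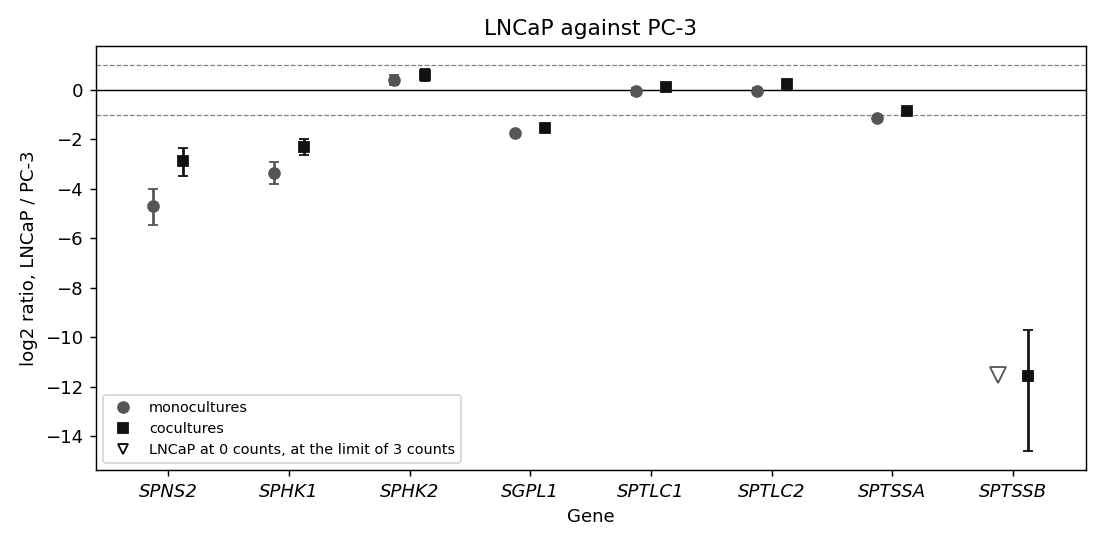
Log2 ratio of LNCaP to PC-3 for the 8 genes in monoculture (circles) and coculture (squares), with 95% counting intervals and dashed lines at 2-fold. SPNS2, SPHK1, SGPL1 and SPTSSB lie below the lower dashed line in both, SPTSSA in monoculture, and SPTLC1, SPTLC2 and SPHK2 lie between the dashed lines. The open triangle is the limit set by 3 counts.

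Counted together, 5 of the 8 genes were at least 2-fold lower and 0 at least 2-fold higher in the LNCaP than in the PC-3 monoculture, where 23.6% and 22.1% of the 15160 genes measured were. A gene counted as measured where either library of the pair had at least 1 CPM. Counting intervals lay above 1 for 1 member and below 1 for 5, beside 44.1% and 42.1% of all genes. The median log2 fold was -1.44, against 0.04 over all those genes. In coculture 4 were lower and 0 higher, where 23.6% and 20.7% of 15155 genes were, with a median of -1.19 against 0.01. Intervals there lay above 1 for 3 and below 1 for 5, beside 42.4% and 42.7% of all genes. The line comparisons in monoculture and coculture thus gave the same 4 genes past 2-fold, and SPTSSA in monoculture alone. SPNS2, counted here as lower in LNCaP, was picked partly because its PC-3 monoculture level passed the cut at 20 CPM. The other members were taken with their CPM known. No excess over all genes is therefore read from these line counts and medians. In the PC-3 coculture 1 of 8, SPNS2, was at least 2-fold lower and 0 higher, where 1.01% and 2.22% of 14417 genes were. SPNS2 was selected on that contrast, so nothing is read from this count. Counting intervals lay above 1 for 3 members and below 1 for 4, beside 21.5% and 20.4% of all genes. The median was -0.10 against 0.00. In the LNCaP coculture 7 members were measured at 1 CPM or more, all but SPTSSB. Of these, 1, SPHK1, was at least 2-fold higher and 0 lower, where 4.56% and 3.03% of 14119 genes were. Intervals lay above 1 for 4 and below 1 for 0, beside 27.8% and 25.8% of all genes. The median was 0.45 against 0.00. The comparisons that share a library are not independent of each other.

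**Figure D4:**
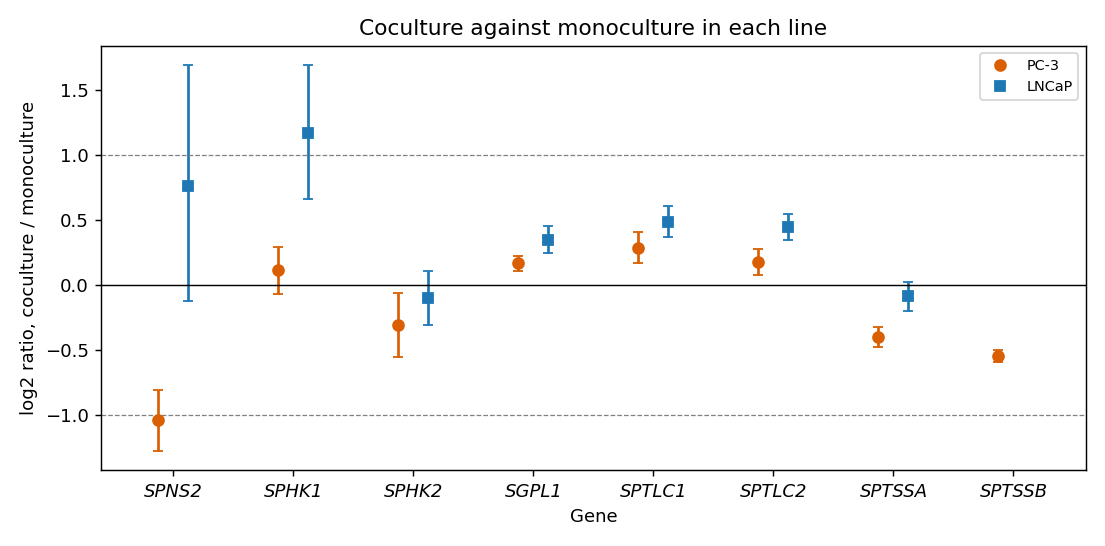
Log2 ratio of coculture to monoculture for the 8 genes in PC-3 (circles) and LNCaP (squares), with 95% counting intervals and dashed lines at 2-fold. SPNS2 was 2.06-fold lower in PC-3 and 1.70 times the monoculture in LNCaP with an interval across 0 on the log2 scale, SPHK1 passes 2-fold in LNCaP, and SPTLC1, SPTLC2 and SGPL1 lie above 0 in both lines. SPTSSB has no LNCaP point.

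The other genes of the pathway were taken from a list of 61, of which 59 were in the table. In the PC-3 coculture 51 of these were measured, with 1 at least 2-fold higher and 0 lower, beside 2.22% and 1.01% of all genes, and a median log2 fold of 0.08. The gene past 2-fold was HEXA, a subunit of lysosomal hexosaminidase, with 44 counts against 0 (at least 14.9-fold). HEXA had 762 and 928 counts in the LNCaP monoculture and coculture, so the PC-3 monoculture was the library without it. HEXA shares 23.7% of its exonic bases with other genes. In the LNCaP coculture 52 were measured, with 2 higher and 0 lower, beside 4.56% and 3.03% of all genes, and a median of 0.26. These were SPTLC3 (2.25-fold, 1.48 to 3.47) and CERK, the kinase that makes ceramide-1-phosphate (150 counts against 54, 2.83-fold, 2.06 to 3.93). Of the genes of lysosomal and other breakdown, 16 of 17 measured had a log2 fold above 0 in the PC-3 coculture and 14 of 18 in the LNCaP coculture, with medians of 0.22 and 0.29. Over all genes 7319 of 14417 and 7067 of 14119 were above 0. Over the whole wider list, which includes the breakdown genes, 37 of 51 and 39 of 52 were above 0. In LNCaP the share was therefore not particular to the breakdown genes. The fibroblast marker sums given above were also higher in both cocultures, and their part in these folds was not tested.

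**Figure D5:**
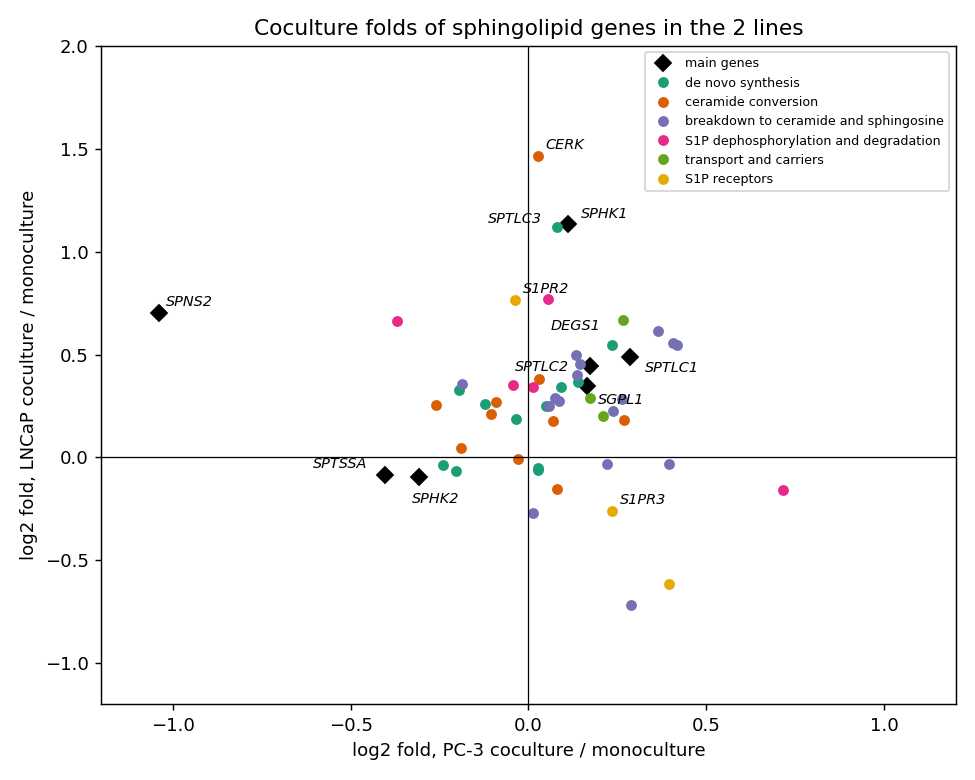
Log2 fold of coculture over monoculture in PC-3 (x axis) against LNCaP (y axis) for 56 of 57 sphingolipid genes with at least 1 CPM in both comparisons, coloured by role, with 7 of the 8 main genes as diamonds and SPTSSB not measured in LNCaP. SPNS2 lies alone at the left, at -1.04 and 0.70, while SPHK1, SPTLC3 and CERK lie high on the LNCaP axis near 0 on the PC-3 axis. HEXA lies outside the axes.

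Between the lines the shares of the wider list past 2-fold were near those of all genes in monoculture. There 11 of 53 measured genes were at least 2-fold higher in LNCaP and 12 at least 2-fold lower, beside 22.1% and 23.6% of all genes, with a median of 0.08. In coculture 13 of 53 were higher and 8 lower, beside 20.7% and 23.6% of all genes, with a median of 0.05. In the synthesis branch, SPTLC3 was 42.6-fold lower in LNCaP monoculture (30.3 to 61.7) and DEGS2, a dihydroceramide hydroxylase, 3.05-fold lower, and in coculture they were 20.0-fold and 2.77-fold lower. DEGS1, the desaturase that turns dihydroceramide into ceramide, was 8.62-fold higher (11842 counts against 1389, 8.15 to 9.12) and 10.7-fold higher in coculture. The ceramide synthase genes CERS1 and CERS4 were 7.84-fold and 2.36-fold higher in monoculture and 7.36-fold and 3.40-fold higher in coculture, with CERS1 sharing 67.1% of its exonic bases with GDF1. The genes KDSR, for the reductase after serine palmitoyltransferase, and ORMDL1, ORMDL2 and ORMDL3, for inhibitors of that enzyme, were within 2-fold in all 4 comparisons. ORMDL2 shares 41.2% of its exonic bases with DNAJC14.

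Of the genes that use ceramide, UGCG, glucosylceramide synthase, was 2.39-fold lower in LNCaP monoculture, and SGMS1, a sphingomyelin synthase, and SAMD8, a related synthase, were 2.15-fold and 2.43-fold lower. In coculture the same 3 genes were 1.68-fold, 2.53-fold and 1.95-fold lower. CERK was 13.9-fold lower in monoculture and 5.00-fold lower in coculture, and B4GALT6, a lactosylceramide synthase, was 2.49-fold and 2.95-fold higher. Among breakdown genes, GBA2, the non-lysosomal glucosylceramidase, was 3.12-fold and 2.73-fold lower. HEXA was at least 257-fold higher in monoculture and 21.3-fold higher in coculture. ASAH2, the neutral ceramidase, was 32.9-fold higher (65 counts against 2, 8.74 to 277) and 8.59-fold higher. SMPD3, a neutral sphingomyelinase, was 2.87-fold higher in monoculture, and its coculture fold of 1.40 had an interval (0.966 to 2.04) that includes 1. SMPD1, acid sphingomyelinase, SMPD2 and SMPDL3A were 1.93-fold, 1.90-fold and 1.93-fold higher in monoculture and 2.11-fold, 2.78-fold and 2.20-fold higher in coculture. SMPD2 shares 24.9% of its exonic bases with PPIL6.

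The lipid phosphatases that can remove the phosphate of S1P split by gene. PLPP3 had 1777 and 1351 counts in PC-3 monoculture and coculture against 126 and 197 in LNCaP, and was 14.0-fold lower in LNCaP in monoculture (11.6 to 16.8) and 6.79-fold lower in coculture. PLPP3 shares 17.5% of its exonic bases with another gene model. PLPP1, which shares 27.0% of its exonic bases with MTREX, was 13.1-fold higher in LNCaP monoculture (11.3 to 15.2) and 16.4-fold higher in coculture, and PLPP2 had 776 and 879 counts in LNCaP and 0 in both PC-3 libraries, at least 261-fold higher in monoculture and at least 296-fold higher in coculture. SGPP1, an S1P phosphatase of the endoplasmic reticulum, was 2.38-fold lower in monoculture and 1.44-fold lower in coculture, and SGPP2 was 4.41-fold (2.26 to 9.42) and 2.23-fold higher. Of the other transporters, ABCA1 was 79.0-fold lower in LNCaP in monoculture (46.9 to 145) and 56.8-fold lower in coculture, and ABCC1 was 2.06-fold (1.94 to 2.19) and 2.05-fold higher. SPNS1, the lysosomal relative of SPNS2, was within 2-fold in all 4 comparisons, but 96.2% of its exonic bases are shared with other gene models, so its counts are uncertain. SPNS3 had 8 counts or fewer in each library.

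Of the 5 S1P receptors, S1PR2, S1PR3 and S1PR4 were above 1 CPM in all 4 libraries, S1PR5 in the PC-3 libraries only, and S1PR1 in 0 libraries. S1PR3 had 568 and 657 counts in the PC-3 monoculture and coculture and 856 and 701 in LNCaP. S1PR2 had 230 and 220 counts in PC-3, and 101 and 170 in LNCaP. Per kb these were the highest receptors in each library, from 2.65 to 4.04 for S1PR3 and from 1.76 to 3.96 for S1PR2. S1PR2 was 2.25-fold lower in LNCaP than in PC-3 monoculture (1.78 to 2.88) and 1.28-fold lower in coculture (1.04 to 1.57). It was 1.71-fold higher in the LNCaP coculture than in its monoculture (1.33 to 2.21). S1PR5 had 30 and 33 counts in PC-3 and 1 in either LNCaP library, and was 29.7-fold lower in LNCaP monoculture with a wide interval (4.93 to 1211) and 32.7-fold lower in coculture (5.47 to 1329). S1PR4 had 22 to 37 counts and S1PR1, the receptor known for lymphocyte egress, 0 to 8. The interval of the S1PR4 fold included 1 in all 4 comparisons, so no difference was detectable at this depth.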

How the data were processed

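The authors deposited unscaled estimated counts for 17791 gene symbols in 4 libraries. Per the submitters' processing notes, FastQC, STAR, Partek and the build hg38 were used; their roles and versions are not given in the sources used here. Libraries were TruSeq RNA v2, per the labels' protocols. Between 33.5% and 34.0% of values per library were not whole, and all were rounded. TMM factors (edgeR 4.0.16, R 4.3.3) gave CPM and log2 folds with a prior count of 2. Folds are ratios of scaled counts with exact 95% conditional binomial intervals, and CPM intervals are exact Poisson. Differences of folds and changes of ratios have delta-method intervals. The fold code was tested on simulated data. A count of 0 was given a floor of 3 counts per library. Intervals and floors cover counting error only, since no molecular identifiers are described. Genes at 1 CPM or more in 1 of the 2 libraries counted as measured. Exonic length is the union of GENCODE 29 basic exons, found for 17082 genes (96.0%), and positions are RefSeq, GRCh38.p14. Python 3.11.15, pandas 2.3.3, scipy 1.17.1 and statsmodels 0.14.6 were used. The members, lists and alternatives were chosen with earlier results of these data known. Named genes were the members, genes of the wider list at least 2-fold different with 20 counts or more in the higher library, the S1P receptors and the 5 genes nearest to SPNS2, among genes with at least 5 CPM in their highest library. KDSR, ORMDL1, ORMDL2, ORMDL3, SPNS1 and SPNS3 were named after their values were seen.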

Additional observations from a re-analysis of the deposited data

Results flagged for a closer look

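The coculture folds of 10 genes, of 31 compared, lay on opposite sides of 1 in the 2 lines, with a counting interval of the difference that left out 0. For 5 of the 10 (CERS4, PLPP3, S1PR3, SAMD8 and UGCG) the interval of the fold left out 1 in both lines. For the other 5 it included 1 in at least 1 line, so opposite directions are not shown for them. With 1 library per group the differences were not tested against the spread between tissues. For SPNS2 the LNCaP log2 fold minus the PC-3 log2 fold was 1.81, from folds of 1.70 and 0.485, and it rests on 30 against 18 counts in LNCaP. SPNS2 was selected on its PC-3 fold, so this difference restates that choice and supports nothing, and its LNCaP interval (0.916 to 3.23) includes 1. PLPP3 had a difference of 1.04 (folds of 1.59 in LNCaP and 0.774 in PC-3) and S1PR2 of 0.81 (1.71 and 0.974). CERS4 had a difference of 0.52, SMPD2 of 0.55, UGCG of 0.51 and SAMD8 of 0.32, each with a fold above 1 in LNCaP and below 1 in PC-3. The reverse order was seen for SMPD3, with a difference of -1.04 (72 against 122 counts in LNCaP), S1PR3 with -0.50 and SGMS1 with -0.23. The comparison took the 8 members and 29 genes of the wider list, less those with 3 counts or fewer in any library. The 29 genes were chosen by the rule given above for named genes, as at least 2-fold different or as S1P receptors. They therefore do not stand for the whole list. The share of all genes that would be flagged in the same way was not computed, so nothing is read from the count of 10.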

How the results depend on the processing

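The 31 log2 folds of the members kept their sign and their side of 2-fold with total counts in place of TMM factors, with DESeq2 1.42.0 size factors, with a prior count of 0.5, with the trend on exonic length removed and with counts not rounded, the last chosen after seeing the data. The largest shifts were 0.02, 0.07, 2.00, 0.05 and 0.00. The shift of 2.00 was SPTSSB in LNCaP against PC-3 monoculture, from -12.12 to -14.12, where the LNCaP count is 0. Counts of genes at least 2-fold different varied most with the filter on low values: without one, 906 were higher and 440 lower in the PC-3 coculture and 1286 and 753 in the LNCaP coculture, and at 5 CPM 87 and 21, and 240 and 154. With the length trend removed, among genes with a length, those at least 2-fold lower went from 146 to 106 in the PC-3 coculture. In the LNCaP coculture they went from 428 to 294. At 5 CPM the wider list held 1 gene at least 2-fold higher in the LNCaP coculture in place of 2, and 0 in the PC-3 coculture in place of 1, which was HEXA. SPNS2 in LNCaP rests on 18 and 30 counts and SPTSSB there on 0 and 2. No paired analysis was possible because each group has 1 library, and for the same reason no library could be left out.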
